A study of Mus musculus with 6 samples.

Results

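The genes described here encode the vacuolar proton pump (V-ATPase), the sorting nexins and the proteins named for vacuolar protein sorting (VPS). They were picked by gene symbol: every symbol starting with Atp6v0 or Atp6v1 and a subunit letter, Atp6ap1, Atp6ap2, Tcirg1, and every numbered Snx or Vps symbol, with pseudogenes left out. The rule found 80 of the 16454 genes in the table, of which 19 belong to the V-ATPase, 30 are sorting nexins and 31 are VPS genes. Of the 89 mouse RefSeq symbols that the rule would match, 8 were not analysed here under any name, 7 of them V1 subunit genes or relatives of one (Atp6v1c1, Atp6v1c2, Atp6v1e1, Atp6v1e2, Atp6v1fnb, Atp6v1g2 and Atp6v1g3) and the other Vps52. One more, the retriever subunit VPS26C, was listed under its older symbol Dscr3 and was therefore not a member. Snx10 and Atp6v0a1 were named as leading members with results of these data known. The lineage difference was thus in view when the genes were chosen, and their values under it are given as a description with no test.

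RNA was sequenced from whole ovaries of CD1 mice of the F3 generation on postnatal day 21. The DEHP lineage (3 ovaries) descended from F0 dams dosed with 20 µg/kg/day of the plasticizer di(2-ethylhexyl) phthalate (DEHP), and the control lineage (3 ovaries) from F0 dams given the vehicle, tocopherol-stripped corn oil. The F3 animals of neither lineage were dosed themselves, as far as the labels say. The comparison asks whether ancestral DEHP exposure left a difference in ovarian expression that great-granddaughters still carry. Litters and founders of the ovaries are not named in the labels, so errors and p-values measure only the spread between these ovaries, which may be partly technical.

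The V-ATPase is a rotary pump: its cytosolic V1 sector splits ATP, and its membrane V0 sector moves protons into endosomes, lysosomes, the Golgi and secretory vesicles. Acidity then drives ligand release, enzyme activation and degradation. Sorting nexins bind phosphoinositides on endosomes through a PX domain. Several of them work with retromer (VPS26, VPS29 and VPS35) to send receptors back to the Golgi or the surface. Other VPS proteins tether membranes (HOPS, CORVET, GARP), sort ubiquitinated cargo into multivesicular bodies (ESCRT) or move lipids (VPS13). In the ovary these routes serve receptor turnover in granulosa and theca cells and membrane traffic in growing oocytes.

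Values were log2 CPM (CPM being reads of a gene scaled to the library total) as the authors deposited them. The sums of CPM over all listed genes ran from 979868 to 1026735 per ovary, so that sequencing depth is unknown. One estimated nuisance direction had been removed by the authors, per the file name. In the resulting values replicates 1 and 3 of the DEHP lineage correlated at 0.9984 over the genes and no other pair of ovaries above 0.9887. The direction missing from the values lay mainly between DEHP-lineage replicates 3 and 1 (weights 0.751 and -0.6). The 6 ovaries are thus not independent, which also limits every statement below that the lineages do not overlap. SDs within the lineages are too small by an unknown amount. Granulosa and oocyte markers were present in all 6 ovaries (Foxl2 254.5 to 323.3 CPM in the DEHP lineage and 233.7 to 291.0 CPM in the control lineage; Gdf9 226.4 to 241.5 CPM in the DEHP lineage and 248.9 to 316.6 CPM in the control lineage). In bulk tissue, fewer cells of a type and less RNA per cell cannot be told apart. Summed markers of theca cells and of smooth muscle lay lower in the DEHP lineage with no overlap, as did the osteoclast list given further on. Theca and interstitial markers (12 of 12 measured, 11 lower) summed to 3115 to 3234 CPM in the DEHP lineage and 3301 to 4051 CPM in the control lineage. Most of that sum was Hsd3b1, with means of 2063 CPM in the DEHP lineage and 2360 CPM in the control lineage. Smooth muscle and pericyte markers (12 of 12 measured, 10 lower) summed to 2062 to 2295 CPM in the DEHP lineage and 2433 to 2751 CPM in the control lineage. Oocyte markers (15 measured, 13 lower and 2 higher) and endothelial markers (10 measured, 8 lower and 2 higher) had sums that overlapped between the lineages. Granulosa markers (12 of 12 measured, 5 higher and 7 lower) also had overlapping sums. These sums were 8854 to 9846 CPM in the DEHP lineage and 7538 to 9040 CPM in the control lineage. Of the granulosa markers, Inha was higher without overlap, and Amh and Kitl were lower without overlap (all genes: 22.9% without overlap). Erythroid markers (5 of 7 measured, 5 higher) summed to 115.3 to 290.0 CPM in the DEHP lineage and 65.6 to 126.6 CPM in the control lineage. Adipocyte markers (9 of 10 measured, 7 higher and 2 lower) summed to 79.6, 577.7 and 140.3 CPM in DEHP-lineage replicates 1 to 3. In the control lineage the adipocyte sums were 92.6 to 282.4 CPM. For both lists the lineages overlapped. The part of these cell types in the values below was not tested.

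As a group the 80 genes lay close to no difference. Of them 39 were higher and 41 lower in the DEHP lineage (all genes: 46.9% higher and 53.1% lower), and the median log2 fold change, DEHP lineage over control lineage, was -0.006 (all genes: -0.012). That sign does not hold under other scalings of the ovaries, since the members' median was 0.004 after median centring and 0.019 after quantile normalization. For 49 members (61.3%) the log2 fold change was within 0.1 of 0, against 43.2% of all genes; among genes with a mean log2 CPM of at least 1 the shares were 65.3% for 75 members and 50.1% for all. With limma (3 residual degrees of freedom, Benjamini-Hochberg adjustment over all 16454 genes, threshold 0.05), 0 of the 80 members passed, against 7 genes of the whole table (0.0425%); at an unadjusted p under 0.05 it was 11 members (13.8%; all genes 8.78%). Among the authors' deposited adjusted p-values, 0 members had a value under 0.05 (all genes: 0.0182%). The 3 ovaries of one lineage all lay beyond the 3 of the other for 23 members (28.7%; all genes 22.9%), 14 of them higher in the DEHP lineage (all genes 10.8%) and 9 lower (all genes 12.2%). Since the lineage difference was known when the genes were chosen, nothing is read from these shares.

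**Figure D1:**
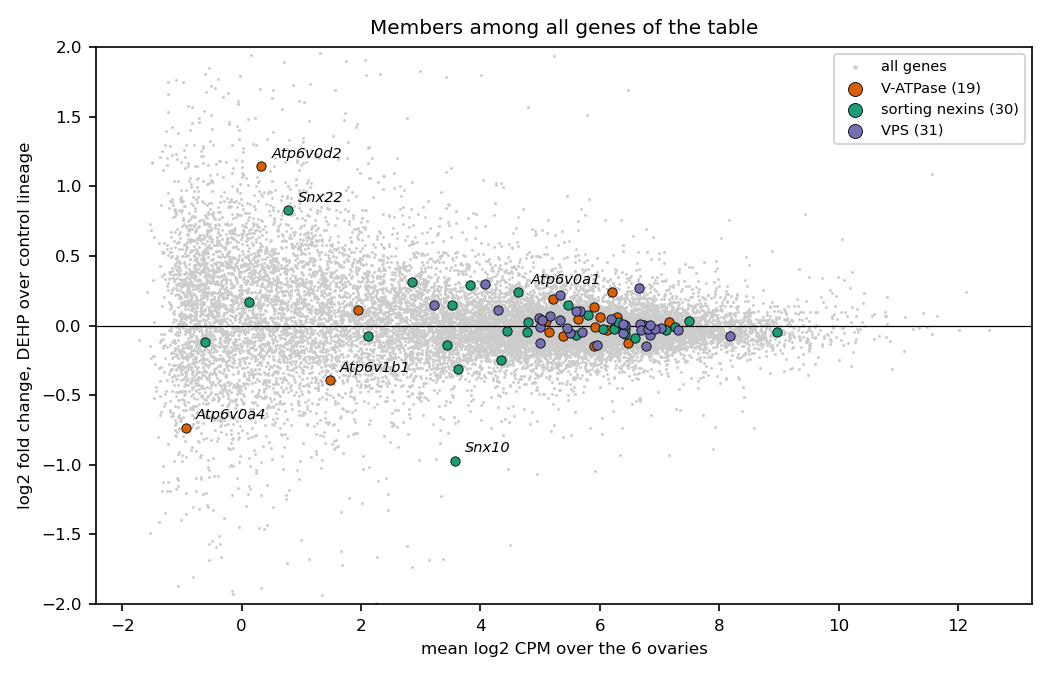
Log2 fold change (DEHP lineage over control lineage, y axis) against mean log2 CPM over the 6 ovaries (x axis) for every gene of the table (grey) and for the 80 members, coloured by family. Most members lie near 0 at mid to high levels. Snx10 at -0.97 lies apart from them, as do the weakly expressed Atp6v0d2 and Snx22 (higher) and Atp6v0a4 (lower, -0.73). Of all genes, 49 fall outside the plotted range.

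Snx10 stood furthest from 0 among members with a mean log2 CPM of at least 1. Its product is a small PX-domain sorting nexin of endosomes and lysosomes, known in humans as a gene mutated in osteopetrosis, where bone-resorbing osteoclasts fail. The gene lies at chr6:51523900-51590679 on the plus strand (GRCm38.p6). In the DEHP lineage Snx10 had 8.01, 8.94 and 8.57 CPM in replicates 1 to 3 (the same order is used throughout), and in the control lineage 18.8, 15.9 and 15.4 CPM. The highest DEHP-lineage ovary was well below the lowest control-lineage ovary. The mean was 8.51 ± 0.46 CPM in the DEHP lineage and 16.7 ± 1.79 CPM in the control lineage (SD, n = 3 each), a log2 fold change of -0.97 (SE 0.139). It did not pass the adjusted threshold with 3 residual degrees of freedom, and it passed with 4, where 0.122% of all genes did. It also passed without DEHP-lineage replicate 1 or 3, but its SE was then larger (0.232 and 0.25) and many more genes were called (1.64% and 1.11% of all genes).

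Snx11, the closest relative of Snx10, was also lower, by less. The DEHP lineage had 18.7, 18.6 and 18.7 CPM of Snx11 and the control lineage 22.5, 21.4 and 22.8 CPM, with no overlap and a log2 fold change of -0.25 (SE 0.097). Per kilobase of exon, Snx10 made up 17.2% ± 0.81 of the summed level of both genes in the DEHP lineage and 25.5% ± 1.97 in the control lineage. The share was lower in each DEHP-lineage ovary than in any control-lineage ovary. Exons of Snx11 overlap 685 bases of Gm11537 on the other strand, while no exon of Snx10 overlaps an opposite-strand exon. The library kit keeps strand, per the labels' protocols, but no source used here says whether the counting used strand.

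Because SNX10 is best known from osteoclasts and macrophages, markers of those cells are set beside it. Macrophage markers (15 of 17 measured, 9 higher and 6 lower in the DEHP lineage) summed to 108.1 to 128.8 CPM in the DEHP lineage and 56.8 to 165.1 CPM in the control lineage. The lowest of the 6 sums was that of control-lineage replicate 2, whose Snx10 level (15.9 CPM) lay with those of the other control ovaries. Osteoclast and giant cell markers (6 of 9 measured, 3 higher and 3 lower) summed to 120.5 to 127.8 CPM in the DEHP lineage and 130.7 to 173.1 CPM in the control lineage. Most of that sum was the integrin gene Itgb3, at 91.4 to 97.5 CPM in the DEHP lineage and 101.1 to 141.6 CPM in the control lineage. The resorption enzyme genes Acp5 (4.62 to 12.2 CPM in the DEHP lineage, 3.81 to 8.67 CPM in the control lineage) and Ctsk (10.5 to 13.0 CPM in the DEHP lineage, 6.58 to 14.3 CPM in the control lineage) overlapped between the lineages. Oscar was at 0.268 to 0.507 CPM in the DEHP lineage and 0.298 to 0.65 CPM in the control lineage, and Dcstamp, Ocstamp and Calcr were not analysed here. The part of these cells in the Snx10 values was not tested.

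**Figure D2:**
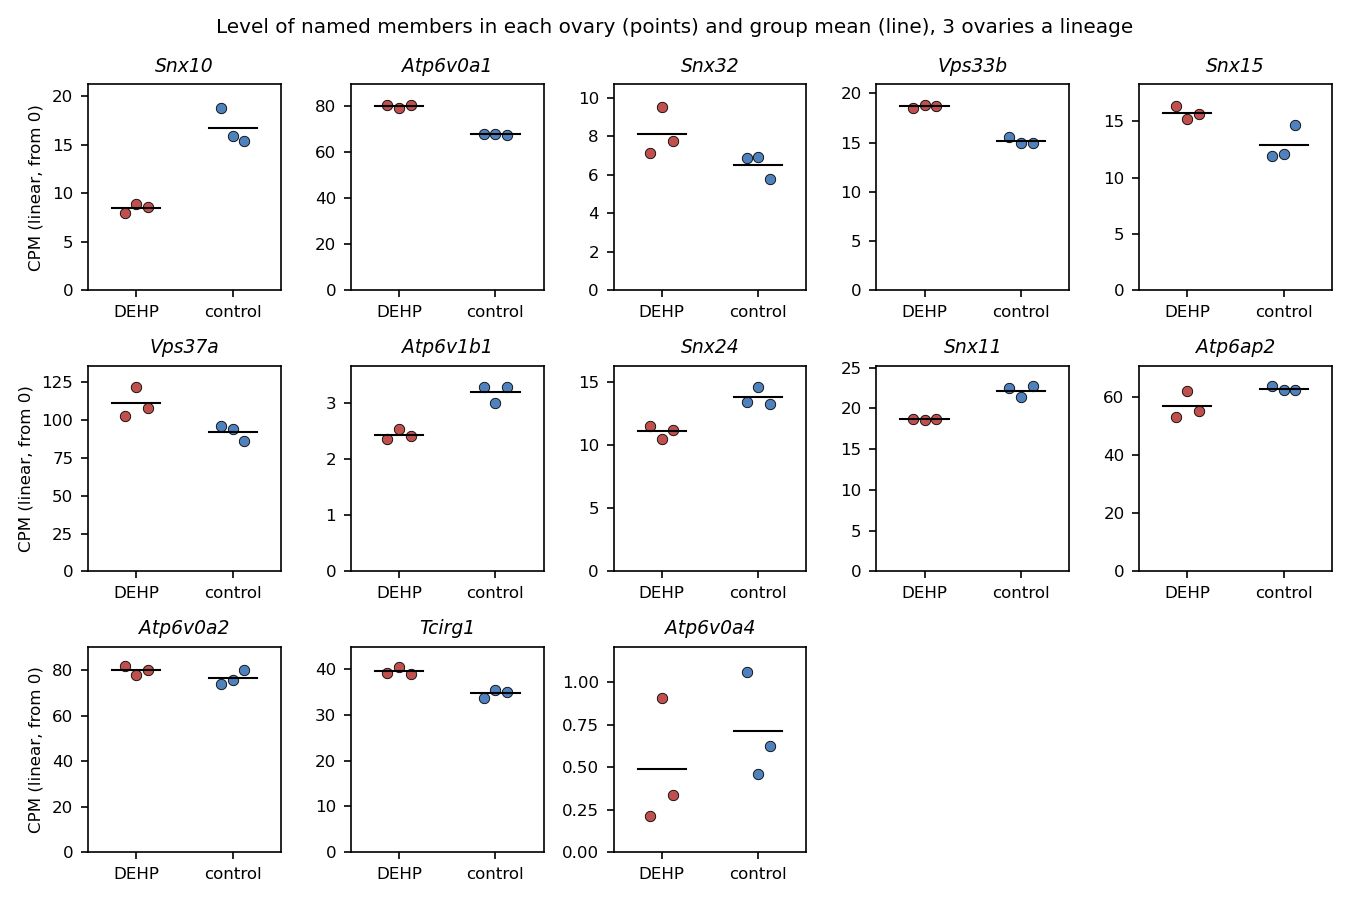
CPM on a linear axis from 0 in each ovary (points, 3 per lineage) with the group mean (line) for 13 members: Snx10, Atp6v0a1, the members with the largest differences either way, and the a subunits of V0. Snx10 sits at 8.01 to 8.94 CPM in the DEHP lineage and 15.4 to 18.8 CPM in the control lineage; Atp6v0a2 and Atp6v0a4 overlap between the lineages.

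Among the V0 genes, Atp6v0a1 and Tcirg1, which encode a subunits, were higher in the DEHP lineage without overlap, and the other a subunits overlapped. Subunit a holds the channel through which protons cross the membrane, and its 4 isoforms steer the pump to different compartments: a1 (Atp6v0a1) is best known from neurons and synaptic vesicles, a2 (Atp6v0a2) from Golgi and endosomes, a3 (Tcirg1) from lysosomes and the osteoclast border, and a4 (Atp6v0a4) from kidney intercalated cells. Atp6v0a1 (chr11:101009422-101063719, plus strand, GRCm38.p6) had 80.7, 79.3 and 80.4 CPM in the DEHP lineage and 67.8, 67.9 and 67.6 CPM in the control lineage. The lineages did not overlap and each was tight, at a log2 fold change of 0.24 (SE 0.066). Its within-lineage SD, 0.009 on the log2 scale, was the smallest of the 80 members, where the median was 0.073 (all genes 0.14). SDs in these values are too small by an unknown amount, and Atp6v0a1 was named with results of these data known. Nothing is read from its small SD.

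Tcirg1 differed in the same direction, with 39.1, 40.4 and 38.9 CPM in the DEHP lineage and 33.5, 35.5 and 35.0 CPM in the control lineage (log2 fold change 0.19, SE 0.08). The lineages did not overlap. Atp6v0a2 had 81.84, 78.01 and 79.98 CPM in the DEHP lineage and 74.1, 75.8 and 80.2 CPM in the control lineage (0.06, SE 0.071), and here the lineages overlapped. Atp6v0a4 was hardly expressed, with 0.215, 0.908 and 0.34 CPM in the DEHP lineage and 1.06, 0.462 and 0.623 CPM in the control lineage, and it also overlapped. Of the kidney intercalated cell markers, 2 of 6 were measured, and they summed to 0.936 to 2.99 CPM in the DEHP lineage and 0.703 to 3.17 CPM in the control lineage.

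Expressed per kilobase of exon union, the a subunits took nearly equal parts for a1 and a2. Atp6v0a1 made up 37.3% ± 0.25 of the summed a-subunit level in the DEHP lineage and 35.2% ± 0.72 in the control lineage. Atp6v0a2 made up 36.3% ± 0.69 in the DEHP lineage and 38.8% ± 0.91 in the control lineage, so that a1 was above a2 in the 3 DEHP-lineage ovaries and below it in the 3 control-lineage ovaries. This order depends on the length used: per kilobase of the longest annotated transcript, a1 was above a2 in all 6 ovaries, at 40.7% in the DEHP lineage and 38.6% in the control lineage. Tcirg1 came after both in every ovary (26.2% in the DEHP lineage, 25.6% in the control lineage) and Atp6v0a4 last (0.30% in the DEHP lineage, 0.49% in the control lineage).

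**Figure D3:**
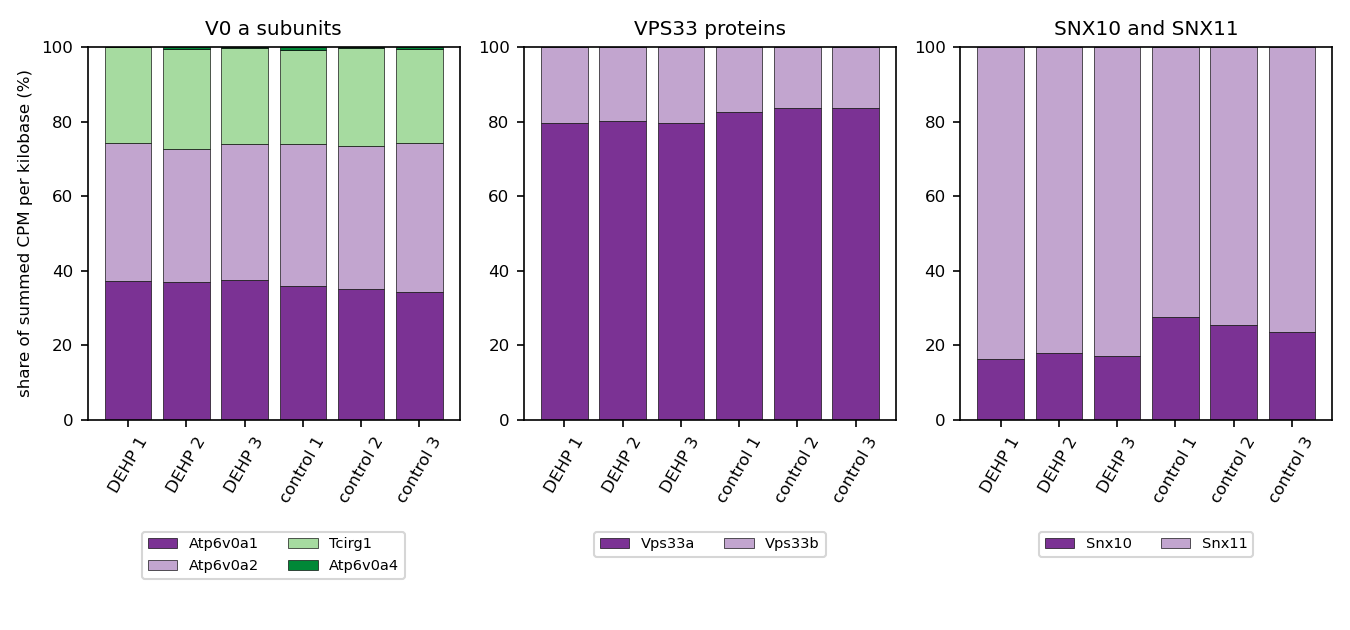
Share (percent) of the summed CPM per kilobase of exon union taken by each paralog in each ovary, for the V0 a subunits, the VPS33 proteins, and SNX10 with SNX11. The Snx10 share is 16.3 to 18.0% in the DEHP lineage and 23.6 to 27.5% in the control lineage, and the Vps33b share is 19.7 to 20.5% in the DEHP lineage and 16.4 to 17.5% in the control lineage.

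The 10 V0 genes together summed to 423.9 to 427.3 CPM in the DEHP lineage and 387.8 to 409.6 CPM in the control lineage, with no overlap. Scalings and subsets of this sum were tried after seeing the data. The lineages stayed apart in the same direction after median centring and quantile normalization. Without the 4 a subunits, the other 6 V0 genes summed to 222.0 to 227.6 CPM in the DEHP lineage and 208.2 to 233.1 CPM in the control lineage, which overlapped. The 7 measured V1 genes summed to 352.6 to 371.3 CPM in the DEHP lineage and 360.9 to 386.0 CPM in the control lineage, which overlapped as well. Of the V0 genes 8 were higher and 2 lower, where the 8 include Atp6v0c, whose sign turns when its pseudogene copy is added. Of the V1 genes 1 was higher and 6 lower (all genes: 46.9% higher and 53.1% lower). For 5 of the 10 V0 genes and 4 of the 7 V1 genes the log2 fold change was within 0.1 of 0. Nothing is read from these signs.

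In V1, the B subunits, which bind ATP with subunit A, both lay lower. Atp6v1b1, the isoform of kidney and inner ear, had 2.35, 2.53 and 2.41 CPM in the DEHP lineage and 3.282, 2.998 and 3.277 CPM in the control lineage (log2 fold change -0.39, SE 0.208). Atp6v1b2, the isoform of most tissues, had 86.2, 83.0 and 86.9 CPM in the DEHP lineage and 96.9, 92.7 and 89.9 CPM in the control lineage (-0.13, SE 0.07). Neither overlapped between the lineages, although for Atp6v1b2 the gap between the nearest ovaries was small. Per kilobase, Atp6v1b2 made up 96.7% of the B-subunit level in the DEHP lineage and 96.0% in the control lineage. Atp6v1d, a part of the central rotor, was the one V1 gene that was higher, with 62.3, 63.5 and 63.1 CPM in the DEHP lineage and 58.4, 61.0 and 53.0 CPM in the control lineage (0.13, SE 0.081). Atp6v1a, the catalytic A subunit, differed by less than its spread (-0.004, SE 0.085).

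The accessory subunits went in different directions. Atp6ap2, also known as the prorenin receptor, had 53.4, 62.2 and 55.4 CPM in the DEHP lineage and 64.0, 62.5 and 62.5 CPM in the control lineage (-0.15, SE 0.084); DEHP-lineage replicate 2 nearly met the control ovaries. Atp6ap1, a glycoprotein built into V0, had 143.5, 146.1 and 144.3 CPM in the DEHP lineage and 142.9, 143.3 and 141.0 CPM in the control lineage (0.02, SE 0.063). The lineages did not overlap, yet their nearest ovaries, at 143.5 CPM in the DEHP lineage and 143.3 CPM in the control lineage, were almost equal.

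The rare d2 subunit had a larger fold at a very low level. Atp6v0d2, known from macrophages, osteoclasts and kidney, had 1.76, 1.85 and 2.00 CPM in the DEHP lineage and 1.18, 0.456 and 1.12 CPM in the control lineage (log2 fold change 1.15, SE 0.42). The lineages did not overlap, and control-lineage replicate 2, the ovary with the lowest macrophage sum, was far below the rest. The other control-lineage ovaries also lay below each DEHP-lineage ovary, and the part of macrophages was not tested. Atp6v0d2 made up 1.76% ± 0.099 of the d-subunit level per kilobase in the DEHP lineage and 0.84% ± 0.34 in the control lineage; Atp6v0d1, the form found in most cells, made up the rest. The fitted fold of a gene at this level depends on the prior count the authors used, and no source used here states it.

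**Figure D4:**
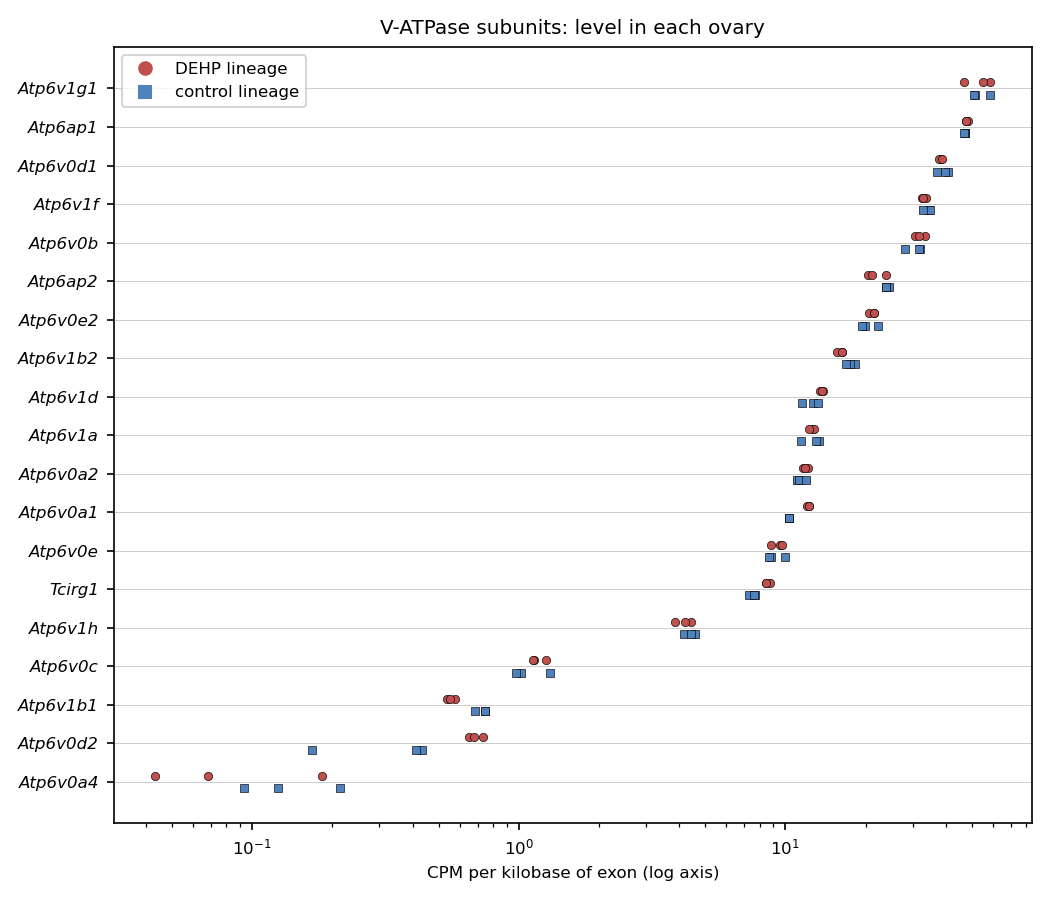
Level of the 19 V-ATPase genes in each ovary, in CPM per kilobase of exon union on a log axis, DEHP lineage (circles, upper row of each gene) and control lineage (squares), ordered by the mean over 6 ovaries. Levels run from 53.5 for Atp6v1g1 down to 0.12 for Atp6v0a4. The lineages do not overlap for 8 of the 19 genes (all genes: 22.9%), among them Atp6v0a1, Tcirg1, Atp6v1b1 and Atp6v0d2.

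Ordered by level per kilobase of exon union over all 6 ovaries, the V-ATPase genes began with Atp6v1g1 (53.5 ± 4.72 CPM per kilobase) and Atp6ap1 (47.4 ± 0.55), whose ranges overlapped. Atp6v0d1 followed at 38.8 ± 1.38, then Atp6v1f (33.5 ± 0.97) and Atp6v0b (31.3 ± 1.80), which overlapped each other. Next came Atp6ap2 and Atp6v0e2, overlapping at 22.9 and 20.9, and Atp6v1b2 at 16.8. Atp6v1d, Atp6v1a, Atp6v0a2 and Atp6v0a1 (13.1, 12.6, 11.6 and 11.3) each overlapped the next in order. Below them stood Atp6v0e (9.26), Tcirg1 (8.05) and Atp6v1h (4.28). Atp6v0c, Atp6v1b1, Atp6v0d2 and Atp6v0a4 stood at 1.142, 0.64, 0.51 and 0.12. The order depends on the length used: per kilobase of the longest transcript, Atp6ap1 (65.6) and Atp6v0b (64.2) stood above Atp6v1g1 (53.5).

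Atp6v0c, which encodes the proteolipid that forms most of the rotor ring in V0, has a pseudogene copy elsewhere in the genome, so its listed level is uncertain. Atp6v0c (chr17:24163865-24169678, minus strand, GRCm38.p6) had 3.86, 4.30 and 3.84 CPM in the DEHP lineage and 3.46, 3.32 and 4.42 CPM in the control lineage. The pseudogene Atp6v0c-ps2 (chr6:37805975-37807107) had 22.0, 21.0 and 22.0 CPM in the DEHP lineage and 24.6, 24.3 and 23.1 CPM in the control lineage. The copy was thus listed above the gene in every ovary. Of 465 aligned bases of the copy's transcript 464 were identical to the gene's, with a longest identical run of 354 bases, so that reads from that stretch can fit both. The following 60 bases, read in the sense of each transcript (bases 258 to 317 of Atp6v0c, 81 to 140 of the copy) from the GENCODE transcripts, are shown because they hold the one differing base, in capitals.
Atp6v0c: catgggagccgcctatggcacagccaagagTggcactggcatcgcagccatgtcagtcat
Atp6v0c-ps2: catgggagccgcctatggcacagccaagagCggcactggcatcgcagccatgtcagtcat
The gene alone had a log2 fold change of 0.11 (SE 0.21). The sum of gene and copy was 25.9, 25.3 and 25.8 CPM in the DEHP lineage and 28.1, 27.6 and 27.5 CPM in the control lineage, a log2 fold change of -0.11 (SE 0.086), which has the opposite sign. No direction is given for Atp6v0c for that reason. Among the other members, Vps25 shared the most sequence with another annotated gene (62.2% of its words of 31 bases, chiefly with Ramp2), followed by Atp6v1g1 (24.0%), Atp6v1f (18.4%) and Vps51 (16.3%), and their levels are uncertain to that extent.

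Retromer and its sorting nexins differed little between the lineages. For 10 of the 12 genes the log2 fold change was within 0.1 of 0, including Vps35 (-0.03, SE 0.071), the scaffold of the complex, and Snx27 (0.002, SE 0.077), its adaptor for returning receptors to the surface. Snx3, a cargo adaptor of retromer, had the highest level per kilobase of all 80 members (127.1 CPM per kilobase). Snx3 had 183.0, 182.2 and 178.9 CPM in the DEHP lineage and 167.9, 174.2 and 191.4 CPM in the control lineage, which overlapped. Vps29, the smallest core subunit, was higher without overlap, with 52.5, 47.0 and 51.4 CPM in the DEHP lineage and 46.9, 46.9 and 46.2 CPM in the control lineage (0.11, SE 0.08), though DEHP-lineage replicate 2 was close to the control ovaries. Snx32, a low relative of the membrane-bending Snx5 and Snx6, had 7.14, 9.53 and 7.74 CPM in the DEHP lineage and 6.85, 6.91 and 5.79 CPM in the control lineage. That was the largest positive log2 fold change among members with a mean log2 CPM of at least 1 (0.31, SE 0.182). Of its exons 468 bases overlap exons of Cfl1 on the other strand. Snx6 and Vps26b were lower without overlap, by small amounts (-0.09 and -0.07).

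Of the 20 remaining sorting nexins, 7 did not overlap between the lineages (all genes 22.9%). Snx15, which joins a PX domain to a microtubule-interacting domain, had 16.4, 15.2 and 15.7 CPM in the DEHP lineage and 11.97, 12.07 and 14.69 CPM in the control lineage (0.29, SE 0.133). Control-lineage replicate 3 came close to the DEHP-lineage ovaries. Snx24, a protein that is little more than a PX domain, had 11.6, 10.5 and 11.2 CPM in the DEHP lineage and 13.4, 14.6 and 13.3 CPM in the control lineage (-0.32, SE 0.125). Snx8, a membrane-bending sorting nexin of early endosomes, had 27.1, 26.4 and 27.4 CPM in the DEHP lineage and 24.0, 22.4 and 22.1 CPM in the control lineage (0.24, SE 0.092). Here the lineages were clearly apart. Snx22 was higher at a low level, with 2.38, 2.09 and 2.39 CPM in the DEHP lineage and 1.42, 0.912 and 1.65 CPM in the control lineage (0.83, SE 0.307), and 825 bases of its exons overlap Ppib on the other strand. Snx18, a SH3-domain relative of Snx9 and Snx33, was the second highest member per kilobase (96.4) and overlapped between the lineages; it made up 74.6% ± 1.62 of the level of those 3 genes in the DEHP lineage and 75.9% ± 2.25 in the control lineage.

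**Figure D5:**
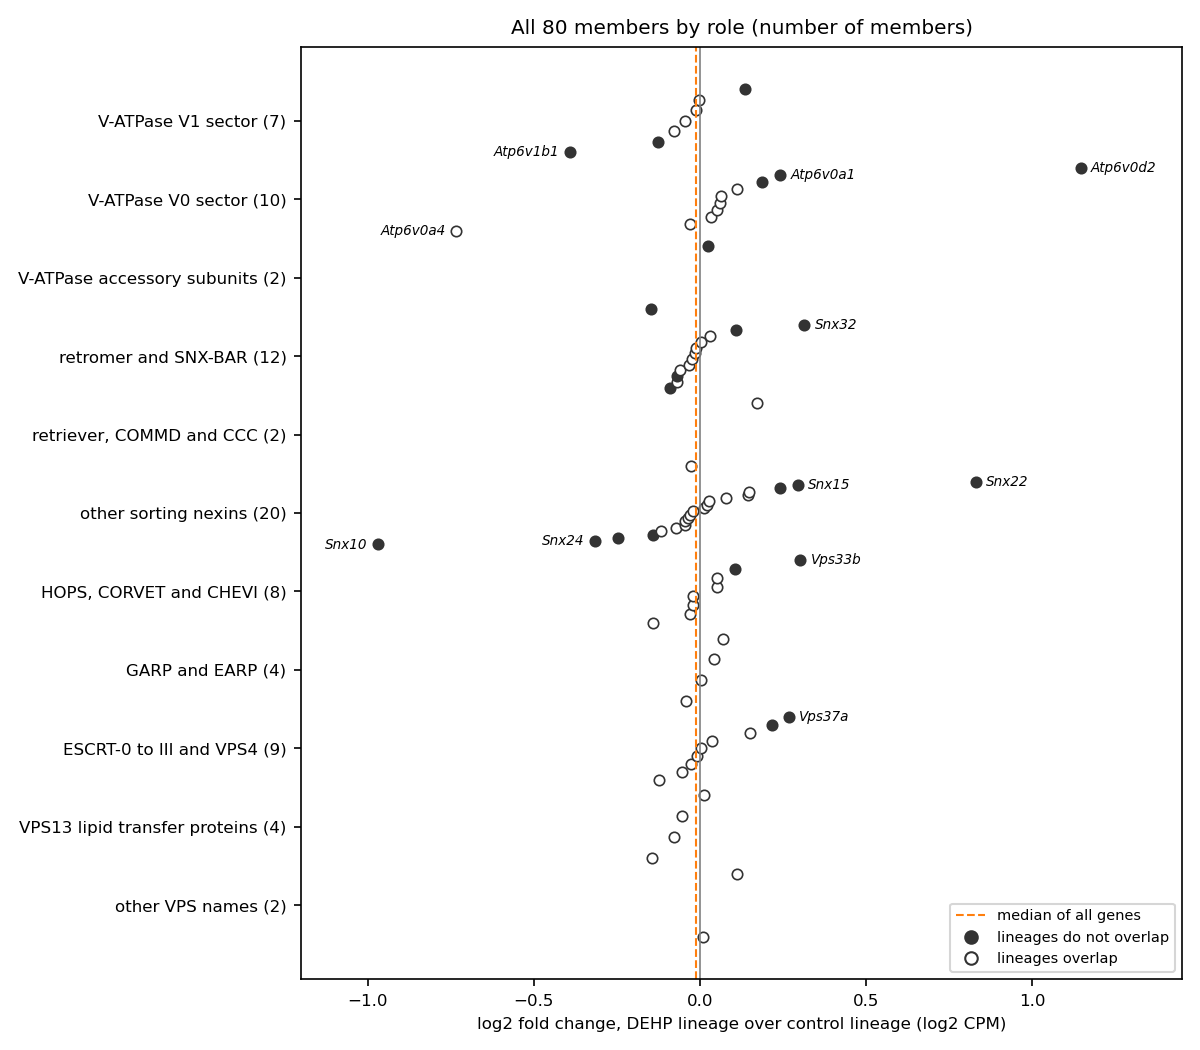
Log2 fold change, DEHP lineage over control lineage, of all 80 members by role (number of members in brackets); filled points are genes whose lineages do not overlap, and the dashed line is the median of all genes (-0.012). Most retromer, GARP, ESCRT and VPS13 genes lie near 0, and the widest spread is among the V0 genes (-0.73 to 1.15) and the other sorting nexins (-0.97 to 0.83).

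Of the tethering genes, Vps33b stood apart. VPS33B pairs with VIPAS39 in a complex (CHEVI) that carries cargo such as collagen-modifying enzymes and granule proteins, while its paralog VPS33A belongs to HOPS and CORVET, which tether endosomes and lysosomes. Vps33b had 18.5, 18.8 and 18.8 CPM in the DEHP lineage and 15.6, 15.0 and 15.0 CPM in the control lineage (0.30, SE 0.103), well apart. Vps33a had 100.2, 105.7 and 100.3 CPM in the DEHP lineage and 101.5, 105.5 and 105.8 CPM in the control lineage, which overlapped. Vps33b thereby made up 20.2% ± 0.41 of the summed level per kilobase of the pair in the DEHP lineage and 16.7% ± 0.63 in the control lineage. Its partner gene Vipas39, which the symbol rule does not match, averaged 67.4 CPM in the DEHP lineage and 67.2 CPM in the control lineage. Of the HOPS and CORVET core, Vps11 was higher without overlap (0.11, SE 0.072), as was the CORVET gene Tgfbrap1, which is no member (0.10, SE 0.068). Vps16, Vps18, Vps39 and Vps41 overlapped.

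Of the 9 ESCRT members, Vps37a and Vps36 were higher in the DEHP lineage without overlap, and the other 7 overlapped (all genes: 22.9% without overlap). Vps37a, one of 4 alternative VPS37 subunits of ESCRT-I, had 102.8, 121.7 and 108.1 CPM in the DEHP lineage and 95.7, 94.0 and 86.1 CPM in the control lineage (0.27, SE 0.09). It made up 37.3% ± 3.17 of the VPS37 level per kilobase in the DEHP lineage and 32.6% ± 0.14 in the control lineage, and by this length it ranked first of the 4 in every ovary. Per kilobase of the longest transcript, Vps37b was above it in control-lineage replicate 3 (32.2% against 31.4%). Vps36, a subunit of ESCRT-II that binds ubiquitin, had 41.5, 47.5 and 42.1 CPM in the DEHP lineage and 36.1, 38.6 and 37.9 CPM in the control lineage (0.22, SE 0.09). For both genes DEHP-lineage replicate 2 was the highest ovary. Over the whole ESCRT list of 30 genes, members and others, 13 were higher and 17 lower, and the median log2 fold change was -0.007. Of the 30, 0 passed limma's adjusted threshold (all genes 0.0425%) and 2 had an unadjusted p under 0.05 (all genes 8.78%). The 4 GARP and EARP genes lay between -0.04 and 0.07, the 4 VPS13 genes between -0.14 and 0.01, and all 8 overlapped between the lineages. Vps72, a chromatin protein that shares only the name, was at 83.1 to 84.6 CPM in the DEHP lineage and 79.0 to 85.8 CPM in the control lineage.

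Genes that work with the members but were not matched by the rule were described from lists of the same pathways. Of 12 measured V-ATPase assembly and regulation genes, 5 were higher and 7 lower, and 0 stood apart without overlap (all genes 22.9%). Of 29 lysosomal enzyme and membrane protein genes, 14 were higher and 15 lower, with a median of -0.011 (all genes -0.012). The transcription factors of the TFEB family, known in human and mouse cells as activators of lysosomal genes, were all higher (3 measured; Tfec was not analysed here). Tfeb had 9.03, 8.33 and 9.45 CPM in the DEHP lineage and 6.92, 5.12 and 5.65 CPM in the control lineage (log2 fold change 0.61, SE 0.178). Mitf had 23.3, 26.5 and 24.8 CPM in the DEHP lineage and 19.8, 22.0 and 13.9 CPM in the control lineage (0.45, SE 0.179). Both were free of overlap (all genes: 10.8% higher without overlap), and neither passed the adjusted threshold. Both were named after their values were seen. Tfe3 differed by less than its spread (0.05, SE 0.082). Among Ragulator and Rag GTPase genes, which hold the mTORC1 kinase at the lysosome, 8 of 10 were lower, among them Rraga with 62.2, 61.2 and 62.7 CPM in the DEHP lineage and 73.9, 67.3 and 73.3 CPM in the control lineage (-0.20, SE 0.074). Rragd went the other way, with 22.7, 20.6 and 22.9 CPM in the DEHP lineage and 18.2, 18.8 and 14.4 CPM in the control lineage (0.37, SE 0.136). In none of these lists did limma call a gene at the adjusted threshold (all genes 0.0425%). In limma, 1 lysosomal, 2 TFEB-family and 2 Ragulator or Rag genes had an unadjusted p under 0.05 (all genes 8.78%).

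The TFEB family is known to bind TCACGTGA, the core of a motif common near lysosomal genes, and the members' promoters were searched for it. The motif is its own reverse complement and contains the shorter E-box CACGTG. RefSeq promoter windows (250 bases before to 50 after a start, GRCm38.p6) were at hand for 55 of the 80 members. TCACGTGA occurred in those of 6 members (10.91%), against 242 of 12482 genes of the table (1.94%). Among V-ATPase genes it was 3 of 14 (21.43%). CACGTG occurred in 11 members (20.0%) and in 11.18% of genes. The following stretches of 58 bases, each on its gene's strand, are shown so that the motif (capitals) can be seen in place; the position of its first base from the start follows the coordinates.
Atp6v0d1, chr8:105566041-105566098, minus strand, position -4: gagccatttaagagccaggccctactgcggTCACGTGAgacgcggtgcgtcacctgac
Atp6v0e, chr17:26676368-26676425, plus strand, position 3: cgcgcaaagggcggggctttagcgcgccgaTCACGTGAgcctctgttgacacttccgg
Atp6v1a, chr16:44139364-44139421, minus strand, position -132: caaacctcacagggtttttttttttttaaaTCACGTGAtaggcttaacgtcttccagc
Vps16, chr2:130424271-130424328, plus strand, position -19: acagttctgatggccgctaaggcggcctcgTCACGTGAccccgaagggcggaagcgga
Vps26a, chr10:62486723-62486780, minus strand, position -152: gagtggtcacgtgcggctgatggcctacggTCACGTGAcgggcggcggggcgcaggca
Vps33a, chr5:123573001-123573058, minus strand, position -13: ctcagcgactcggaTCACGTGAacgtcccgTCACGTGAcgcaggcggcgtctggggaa
Vps33a held the motif at 2 places, and Vps26a once for each of 2 annotated starts. The 6 genes had log2 fold changes of -0.03 (Atp6v0d1), 0.03 (Atp6v0e), -0.004 (Atp6v1a), 0.05 (Vps16), -0.02 (Vps26a) and -0.03 (Vps33a). Every one of them overlapped between the lineages (all genes: 22.9% without overlap). With 6 genes and that share, nothing is read from the overlap. The windows of Snx10 and Atp6v0a1 did not hold these 8 letters. A match is a description of letters and not of binding.

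The deposited gene annotation placed 51 of the 80 members (63.8%) in the endosome, against 3.63% of annotated genes, and 18 (22.5%) in the lysosomal membrane, against 1.19%. Of 41 members with a KEGG pathway, 22 (53.7%) were listed under endocytosis, against 4.23% of annotated genes, and 18 (43.9%) under phagosome, against 2.22%. The symbols used to pick the genes name such functions, so these shares only describe the set.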

How the data were processed

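RNA of 6 ovaries was measured, 3 per lineage. The submitters' processing notes name STAR 2.5.3a, featureCounts, edgeR 3.20.5 and the build GRCm38.p6, among other tools, without roles or settings. Per the file headers, the authors deposited log2 CPM per ovary, a log2 fold change, a signed linear fold change (a score here, not used) and p-values with an FDR; a surrogate variable had been removed, per the file name. With log2 values alone, depth and counting error are unknown.

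From the deposited log2 CPM, limma 3.58.1 (R 4.3.3, mean-variance trend) compared the lineages over all 16454 genes, two-sided, with Benjamini-Hochberg adjustment. The removed direction cost 1 degree of freedom, leaving 3. The fit was tested on simulated data. CPM is 2 to the power of the deposited value; levels per kilobase used GENCODE exon unions of GRCm38.p6, and shared sequence used words of 31 bases. Promoters were from RefSeq. Members and lists were chosen with earlier results of these data known. Named with all ovaries were Snx10, Atp6v0a1, the 5 members furthest up and the 5 furthest down whose log2 CPM averaged at least 1, and the a subunits; Atp6v1b2, Atp6v1d, Atp6ap1, Atp6v0d2, Snx3, Snx8, Snx22, Vps29, Vps33a and Vps36 were added to describe their complexes after their values were seen, as were Tfeb, Mitf, Rraga and Rragd from the lists. Alternatives changed degrees of freedom, scaling, filter, pseudocount (1), trend, empirical Bayes, replicate block, ovaries, gene length and motif.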

Additional observations from a re-analysis of the deposited data

How the results depend on the processing

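The 13 named members kept their direction in all 194 fits under 15 alternatives, and the 3 newly called fits were all of Snx10. Changes of degrees of freedom, trend, empirical Bayes, replicate block and filter leave a fold change as it was. Those fits could not turn a direction, and most of the 13 were chosen for large differences in these data. The tally is therefore a description. Members called were 1 (Snx10) with 4 residual degrees of freedom and 0 to 1 with 1 ovary left out (1 without DEHP-lineage replicate 1 or 3), against 0. Over all genes, calls were 20 with 4 residual degrees of freedom, 3 after quantile normalization, 1 without the mean-variance trend, and 3 to 270 with 1 ovary left out (270 without DEHP-lineage replicate 1, 183 without DEHP-lineage replicate 3, 43 without DEHP-lineage replicate 2, 27 and 3 without control-lineage replicate 1 and 2), against 7. With 1 ovary left out, non-overlapping members, 23 with all ovaries, numbered 23 to 37 (35 without DEHP-lineage replicate 2, 37 without control-lineage replicate 3), the members' median log2 fold change (0.019 after quantile normalization) was -0.011 to 0.01, and the a1 share difference, DEHP lineage minus control lineage (2.14 percentage points), was 1.77 to 2.48; fewer ovaries make it easier not to overlap, and the cause of the other changes was not tested. Atp6v0a1 exceeded Atp6v0a2 in 6 ovaries per kilobase of longest transcript, against 3. CACGTG was in 11 members' promoters. Summing Atp6v0c with its copy, an alternative chosen after seeing the data, gave -0.113. With the replicate number as a block, 0 members and 6 genes were called and the members' median was -0.006. Same-numbered ovaries correlated at -0.327, -0.003 and -0.198 once lineage means were taken out. With 3 ovaries per lineage and a direction removed beforehand, this cannot decide whether the numbers pair ovaries. No ovary pair is implied by the labels. Unknown depth limits the low genes most, such as Atp6v0a4, whose log2 fold change ran from -1.32 to -0.22.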

Other observations

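Of the COMMD genes, 3 in the same endosomal sorting pathway as Snx17 were lower in the DEHP lineage without overlap (all genes: 12.2% lower without overlap). COMMD proteins join the CCC complex, which works with retriever and SNX17 to return receptors from endosomes to the surface. Commd10 had 29.5, 27.0 and 29.2 CPM in the DEHP lineage and 35.6, 33.4 and 34.9 CPM in the control lineage (log2 fold change -0.28, SE 0.088). Commd7 had 32.1, 31.6 and 31.7 CPM in the DEHP lineage and 36.7, 38.6 and 37.7 CPM in the control lineage (-0.24, SE 0.08), and Commd1 had 37.8, 34.4 and 37.7 CPM in the DEHP lineage and 45.3, 42.0 and 42.4 CPM in the control lineage (-0.24, SE 0.086). None of them passed the adjusted threshold in limma; they were named after their values were seen, among 16 measured genes of that list of which 9 were lower and 7 higher. Snx17, the cargo adaptor of the route, averaged 74.7 CPM in the DEHP lineage and 76.1 CPM in the control lineage.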
